A study of Rattus norvegicus with 18 samples.

Results

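Hepatic acute phase proteins are plasma proteins that the liver makes in larger or smaller amounts during inflammation. Of 10 such genes listed by symbol (Crp, A2m, Lcn2, Orm1, Hp, Lbp, Cp, Itih3, Itih4 and Serpina3n), 9 had a row among the 32623 genes of the liver tables, and 9 of those 9 passed the filter on low counts that left 12904 genes tested. No row carried the symbol Serpina3n, so the level of this gene was not analysed here.

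In the acute phase response, cytokines of the interleukin-6 family signal through the shared receptor gp130 to the transcription factor STAT3 in hepatocytes. Interleukin-1 and tumor necrosis factor signal to NF-kB, and C/EBP factors act on many of the same promoters. Hepatocytes then secrete more of the positive acute phase proteins, which bind microbial products, block proteases or carry heme, iron and copper, and less of the negative ones such as albumin and transthyretin. In the rat, alpha-2-macroglobulin is a strongly inducible acute phase protein, whereas C-reactive protein is abundant in plasma also without inflammation.

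RNA was sequenced from the liver of 18 male Wistar rats, with 1 library per rat and 6 rats in each of 3 groups. Control rats received standard chow and plain water for 12 weeks. NASH rats, a model of non-alcoholic steatohepatitis, inhaled CCl4 and drank phenobarbital for 6 weeks and then received a high-fat, high-cholesterol diet for 4 weeks, so that they had no CCl4 or phenobarbital in the weeks before sampling. NASH-CH rats, a model of NASH with cirrhosis, were exposed to CCl4 and phenobarbital throughout 24 weeks and to the diet in the last 16 of them. Age at sampling is not given in the sources used here, and diet, toxicant and duration differ together between the groups, so their contributions cannot be told apart. Rats were housed in pairs, and which rats shared a cage is not given in the labels.

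Total counts ranged from 19498516 to 27174006 for control libraries, 20827733 to 29491895 for NASH and 44680345 to 60117806 for NASH-CH libraries. NASH-CH libraries were 2.07 times as deep as control libraries (p = 0.00216 by a two-sided exact permutation test, which cannot go lower with these group sizes), and depth and group cannot be told apart. Levels are given as CPM, the reads of a gene per 1000000 reads of the TMM-scaled library, which do not correct for gene length and are compared only within a gene. Hepatocyte markers were abundant in every library, with a summed level of 13 markers of 109200 to 151600 CPM in control animals, 74750 to 116500 in NASH animals and 54070 to 111800 in NASH-CH animals. Most of this sum was Alb, serum albumin, itself a negative acute phase gene. Over the 13 markers the median log2 fold change against control was 0.15 in NASH and 0.02 in NASH-CH rats, where 1 rose and 2 fell. In bulk liver, fewer cells of a type and less RNA per cell cannot be told apart.

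In comparison to control animals, 4 of the 9 genes were increased in NASH-CH rats, namely Lbp, A2m, Crp and Lcn2, and 0 were decreased (limma-voom, adjusted p under 0.05; 0 were lower also at an unadjusted p under 0.05, with edgeR and with DESeq2). Over all genes tested in NASH-CH rats, 17.0% passed the test, 8.38% as increases and 8.60% as decreases. In NASH rats 1 of the 9 genes passed, A2m, against 3.12% of all genes and 1.58% as increases and 1.54% as decreases. Between the models, 1 of the 9 was higher in NASH-CH than in NASH rats, Lbp, against 4.20% of all genes and 1.81% as increases and 2.39% as decreases. The median log2 fold change of the 9 genes was 0.25 in NASH and 0.49 in NASH-CH rats against control, and 0.31 in NASH-CH against NASH rats, while the median of all genes was 0.01 in each of these comparisons. Both models share the same control rats.

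**Figure D1:**
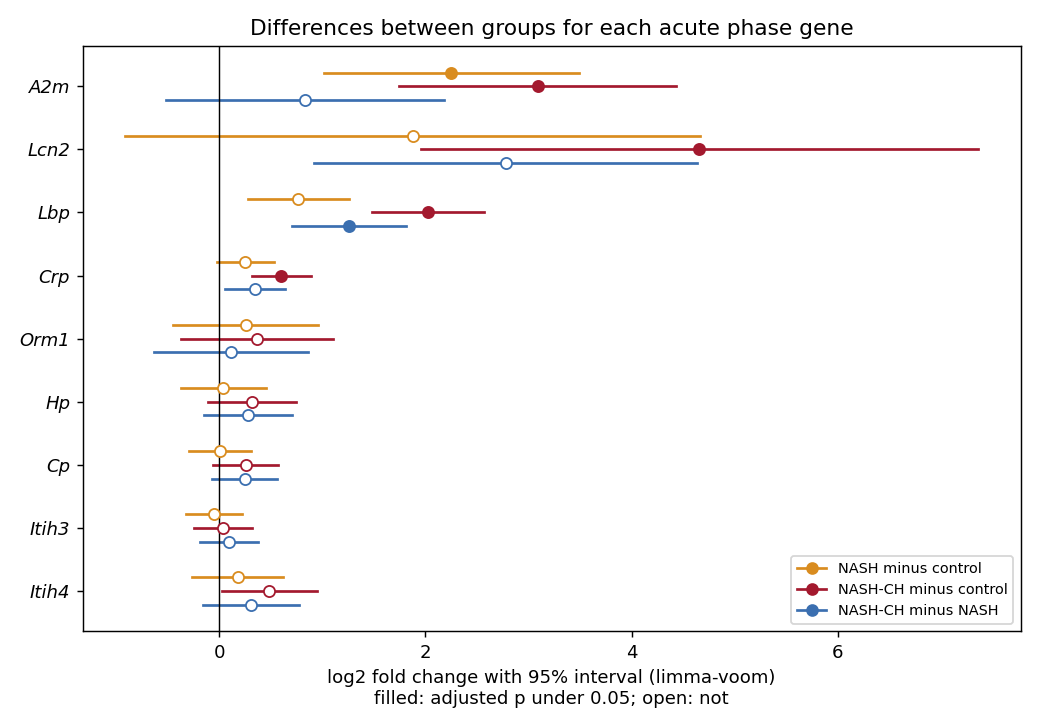
Log2 fold change of each acute phase gene with its 95% interval (limma-voom) for the 3 comparisons between groups, with filled points where the adjusted p was under 0.05. A2m, Lcn2 and Lbp lie farthest to the right in NASH-CH rats, at 3.09, 4.66 and 2.02, and the intervals of Hp, Cp, Itih3 and Orm1 include 0 in every comparison.

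Upstream sequences are shown for 2 genes that rose in NASH-CH rats, Lcn2 and Crp, and for 2 that did not pass the test, Orm1 and Itih4. They come from RefSeq (build GRCr8, which is not the build of the count tables), where 7 of the 10 listed genes matched an entry. Each is written 5′ to 3′ on the strand of the gene and ends before the annotated gene. Capitals mark every match, on either strand, to TTCNNNGAA (a STAT3-type motif), TTNNGNAA (a C/EBP-type motif) or an NF-kB-type motif (GGG and CC with 5 bases of any kind between them). Lcn2 lies on the minus strand of chr3:36081852-36082030, Crp on the plus strand of chr13:87693812-87694061, Orm1 on the plus strand of chr5:81788259-81788508 and Itih4 on the plus strand of chr16:6086735-6086984.
Lcn2: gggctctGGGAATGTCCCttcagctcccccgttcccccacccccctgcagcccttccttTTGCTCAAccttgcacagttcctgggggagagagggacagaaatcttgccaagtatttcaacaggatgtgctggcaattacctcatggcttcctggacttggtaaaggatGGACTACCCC
Crp: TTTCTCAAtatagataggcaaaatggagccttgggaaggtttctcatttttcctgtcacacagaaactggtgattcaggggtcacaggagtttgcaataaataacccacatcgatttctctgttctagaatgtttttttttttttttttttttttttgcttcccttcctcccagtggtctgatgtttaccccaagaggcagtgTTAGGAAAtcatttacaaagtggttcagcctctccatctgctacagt
Orm1: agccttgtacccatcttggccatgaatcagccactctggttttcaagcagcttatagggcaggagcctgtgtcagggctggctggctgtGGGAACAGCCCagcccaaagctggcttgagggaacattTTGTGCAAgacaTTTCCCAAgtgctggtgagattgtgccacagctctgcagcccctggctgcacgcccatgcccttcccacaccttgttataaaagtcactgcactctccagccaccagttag
Itih4: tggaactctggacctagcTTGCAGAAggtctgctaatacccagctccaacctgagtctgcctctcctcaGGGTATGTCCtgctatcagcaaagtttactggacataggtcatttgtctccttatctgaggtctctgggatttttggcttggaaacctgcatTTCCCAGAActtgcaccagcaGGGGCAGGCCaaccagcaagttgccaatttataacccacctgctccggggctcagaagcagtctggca

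In the 250 bases before the start, TTCNNNGAA was present in 2 of the 7 genes, Itih4 and Serpina3n, and in 7.67% of 33469 RefSeq promoters. TTNNGNAA was present in 6 of the 7, the exception being Itih3, and in 37.2% of all promoters. All 250 bases of Cp, 235 of those of Itih3 and 71 of those of Lcn2 lie inside the annotated gene, and so does the match of Cp. The NF-kB-type motif was present in 4 of the 7 (Lcn2, Orm1, Itih4 and Serpina3n) and in 42.3% of all promoters, and a match on one strand often overlaps one on the other. These letter matches are a description of the sequence and were not tested as binding sites. Of the genes shown, Lcn2, Orm1 and Itih4 had matches to the NF-kB-type motif and Crp had none. A relation between the matches and the differences between groups was not tested.

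Among the genes of microbial recognition, Lbp, which encodes the lipopolysaccharide-binding protein that hands bacterial endotoxin to CD14 (ENSRNOG00000014532), showed the smallest adjusted p of the 9 genes in NASH-CH rats. Its level was 36.4 ± 11.6 CPM in control animals, 60.6 ± 13.7 in NASH animals and 157 ± 81.3 in NASH-CH animals (mean ± SD of 6 rats, as below). The lowest, median and highest rats had 24.3, 32.5 and 54.4 CPM in control, 43.6, 60.9 and 77.9 in NASH and 91.7, 138 and 312 in NASH-CH. Every NASH-CH rat was above every control and every NASH rat, and 3 of the 6 NASH rats were above every control rat. Lbp rose by a log2 fold change of 2.02 (SE 0.259) in NASH-CH rats against control (adjusted p = 3.29e-05) and by 1.26 (SE 0.263) against NASH (adjusted p = 0.00835), which are 4.06-fold and 2.39-fold. In NASH rats the difference from control was 0.77 (SE 0.234, adjusted p = 0.0746). It passed the test without control 2 (adjusted p = 0.0393), without control 6 (0.0424) and without NASH-CH 5 (0.0354), with the 2 groups fitted alone (0.0468) and with sample quality weights (0.0144). The highest Lbp level was that of NASH-CH 5, which also had the highest summed levels of neutrophil and cholangiocyte markers, 8.97 and 53.8 CPM. Without this rat Lbp rose by 1.81 in NASH-CH rats against control (adjusted p = 3.6e-05) and by 1.04 against NASH (adjusted p = 0.0127).

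Lcn2 encodes lipocalin-2, which withholds iron from bacteria by binding their siderophores (ENSRNOG00000013973). Control rats had between 0.757 and 2.27 CPM, from 15 to 55 counts per library. In NASH rats 1 to 6 the values were 93.8, 30.6, 8.76, 2.06, 1.27 and 0.822 CPM, so that 3 rats stood above every control rat and 3 lay within the control range. NASH-CH rats had 155.5, 82.7, 28.2, 20.4, 35.1 and 12.3 CPM, each above every control rat. The rise in NASH-CH rats was 4.66 on the log2 scale (SE 1.29, adjusted p = 0.0195), or 25.2-fold, and it ranked 10 of 12904 genes by log2 fold change. In NASH rats Lcn2 differed from control by 1.88 (SE 1.33, 95% interval -0.91 to 4.67, adjusted p = 0.437). The estimate differed between tests. In the same comparison edgeR gave 3.85 (adjusted p = 0.0386), DESeq2 3.88 (adjusted p = 0.00149) and limma-voom with the replicate number as a block 3.20 (adjusted p = 0.0216), whereas limma-voom without NASH 1 gave 1.12 (adjusted p = 0.6). Between the models the difference was 2.78 (95% interval 0.92 to 4.63, adjusted p = 0.0885). It ranged from 2.13 without NASH 6 (adjusted p = 0.226) to 3.54 without NASH 1 (adjusted p = 0.0145), the rats with the lowest and the highest level of their group. DESeq2 gave 1.28 (adjusted p = 0.499), edgeR 1.29 (adjusted p = 0.48) and the replicate block 2.37 (adjusted p = 0.0321), and the test was passed also without a filter on low counts (0.0406) and with sample quality weights (0.0472).

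Lcn2 is also known as a product of neutrophil granules, so neutrophil markers were summed. Of 14 markers 1 passed the filter on low counts, S100a9, and it did not pass the test in NASH-CH rats (log2 difference 1.22, adjusted p = 0.259). The summed level was 0.825 to 3.97 CPM in control animals, 0.624 to 2.02 in NASH animals and 1.10 to 8.97 in NASH-CH animals. Ltf was at 0 in every rat of all 3 groups, and Mpo, Elane and Prtn3 were at 0 in every NASH rat. Cholangiocyte markers summed to 8.83 to 11.1 CPM in control animals, 6.83 to 12.6 in NASH animals and 6.97 to 53.8 in NASH-CH animals. Of 5 cholangiocyte markers tested 0 passed in NASH-CH rats against control with limma-voom (2 were higher at an unadjusted p under 0.05), while edgeR called 2 higher and DESeq2 1. Against NASH rats limma-voom called 1 higher, Spp1, osteopontin (1.61, adjusted p = 0.0153), a call lost without NASH 6 (0.0508) and with the 2 groups fitted alone (0.0547), and edgeR called 3. The part of these cells in the Lcn2 difference was not tested.

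Crp, the pentraxin that binds phosphocholine on microbes and damaged cells (ENSRNOG00000000053), differed by a smaller factor. Its level was 2013 ± 248 CPM in control animals, 2386 ± 281 in NASH animals and 3076 ± 595 in NASH-CH animals. The lowest, median and highest rats had 1682, 1986 and 2423 CPM in control, 1913, 2408 and 2711 in NASH and 2224, 3150 and 3836 in NASH-CH. Thus 5 of the 6 NASH-CH rats and 3 of the 6 NASH rats were above every control rat. Crp rose by 0.60 in NASH-CH rats (SE 0.137, adjusted p = 0.00626), or 1.52-fold. The difference was 0.25 in NASH rats (95% interval -0.03 to 0.53, adjusted p = 0.28) and 0.35 between NASH-CH and NASH rats (0.06 to 0.64, adjusted p = 0.182).

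Among the protease inhibitors, A2m, which encodes the alpha-2-macroglobulin that traps proteases of every class (ENSRNOG00000028896), was the only one of the 9 genes called in both models. Control rats had 5.55 to 30.2 CPM, with a median of 20.6. NASH rats 1 to 6 had 315, 68.2, 216, 21.6, 89.3 and 24.5 CPM, and NASH-CH rats had 169.5, 154, 302, 164, 82.4 and 68.2 CPM. Each NASH-CH rat and 4 of the 6 NASH rats were above every control rat, while NASH 4 and NASH 6 lay within the control range. A2m rose by 2.25 in NASH (SE 0.589, adjusted p = 0.0439) and by 3.09 in NASH-CH rats (SE 0.64, adjusted p = 0.0032), which are 4.77-fold and 8.5-fold. The difference between the models was 0.83 (95% interval -0.52 to 2.19, adjusted p = 0.545). The call in NASH rats was lost in 11 of the 18 fits that left out 1 rat (control 1, 3, 4 or 5, NASH 1, 2, 3 or 5, or NASH-CH 1, 2 or 4), with log2 differences of 1.84 to 2.41 and adjusted p of 0.0543 to 0.116. It was also lost without a filter on low counts (0.0685) and with the 2 groups fitted alone (0.0614).

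Itih3 and Itih4 encode heavy chains of the inter-alpha-trypsin inhibitor family, and that of Itih3 binds hyaluronan in the extracellular matrix. Itih3 (ENSRNOG00000017689) was at 2792 ± 352 CPM in control animals, 2698 ± 357 in NASH animals and 2885 ± 508 in NASH-CH animals, and its log2 differences from control were -0.05 (95% interval -0.33 to 0.22) and 0.04 (-0.24 to 0.32). Itih4 (ENSRNOG00000017381) was at 2602 ± 444, 3046 ± 1020 and 3744 ± 1190 CPM, with 4 of the 6 NASH-CH and 2 of the 6 NASH rats above every control rat. Its difference in NASH-CH rats was 0.48 (95% interval 0.03 to 0.94, adjusted p = 0.136), and it passed the test with sample quality weights (0.65, adjusted p = 0.0406).

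The carriers did not pass the test in any comparison. Hp, which encodes haptoglobin, the scavenger of free hemoglobin (ENSRNOG00000014964), was at 6125 ± 1040 CPM in control animals, 6380 ± 1610 in NASH animals and 7851 ± 2410 in NASH-CH animals. Its highest values were 9191 CPM in NASH 1 and 11390 CPM in NASH-CH 4, against 7345 CPM in the highest control rat, and the log2 difference in NASH-CH rats was 0.32 (95% interval -0.10 to 0.75, adjusted p = 0.292). Cp, the copper-binding ferroxidase ceruloplasmin (ENSRNOG00000011913), was at 2097 ± 373, 2099 ± 259 and 2527 ± 490 CPM. Its log2 difference was 0.01 in NASH (95% interval -0.29 to 0.31) and 0.26 in NASH-CH rats (-0.06 to 0.57), with 4 of the 6 NASH-CH rats above every control rat. Orm1, the drug-binding alpha-1-acid glycoprotein (ENSRNOG00000007886), was at 309 ± 76.6, 427 ± 317 and 419 ± 173 CPM. The 6 NASH rats had 1046, 451, 372, 234, 251 and 205 CPM, so that 1 rat was far above the others, and the log2 difference from control was 0.26 (95% interval -0.45 to 0.96, adjusted p = 0.706). Without NASH 1 that difference was -0.06 (adjusted p = 0.926). In NASH-CH rats it was 0.37 (-0.37 to 1.10, adjusted p = 0.499).

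**Figure D2:**
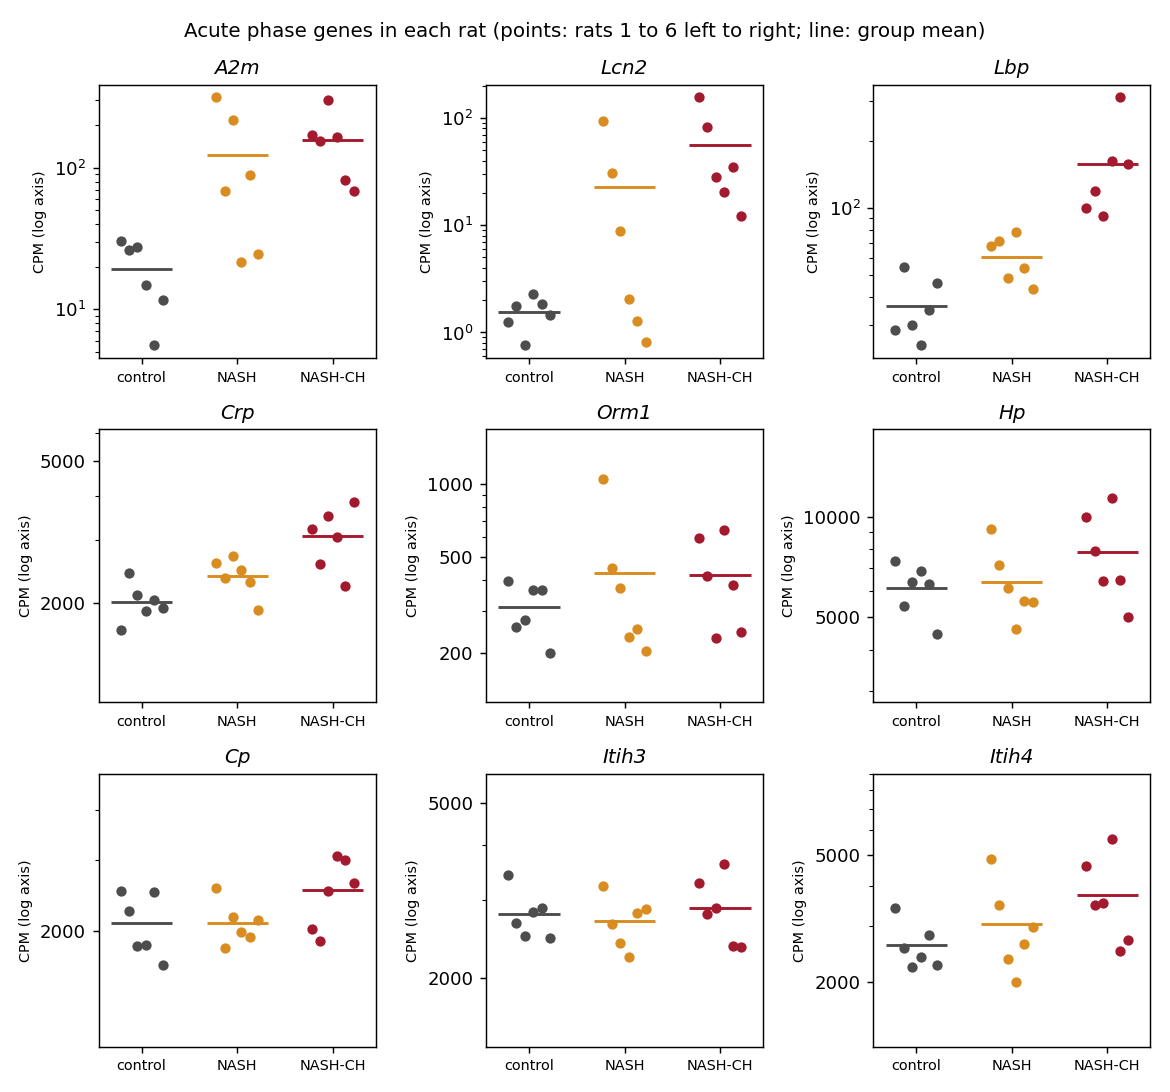
CPM of the 9 acute phase genes in each rat (log axis, 1 point per rat, rats 1 to 6 from left to right in each group, horizontal line at the group mean). Lbp, Lcn2 and A2m in NASH-CH rats lie wholly above control rats, while in NASH rats each of the 9 genes overlaps the control range.

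Groups that do not overlap were seen for 3 of the 9 genes in NASH-CH against control rats (Lbp, Lcn2 and A2m, higher), against 3.64% of all genes tested, and for 1 of the 9 in NASH-CH against NASH rats (Lbp), against 1.36%. In NASH rats 0 of the 9 genes stood wholly above control rats, against 1.77% of all genes. Without TMM scaling the median of all genes moved to 0.23 in NASH and 0.27 in NASH-CH rats against control, and increases made up 85% of the calls in NASH-CH rats in place of 49.4%, and 90.8% in NASH rats in place of 50.6%. Hp, Cp, Itih3 and Itih4 then also passed the test in NASH-CH rats, where 25.3% of all genes passed without TMM scaling. Relative to the median of all genes, their log2 differences were 0.31, 0.26, 0.03 and 0.47 without TMM scaling, and 0.31, 0.24, 0.03 and 0.47 with it. Subtracting the median removes a shift shared by all genes, so these values had to be close. They cannot decide between the 2 scalings.

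Rats differed from each other in a way that several genes shared. NASH 1 had the highest level of its group for 7 of the 9 genes (Orm1, Cp, Lcn2, Hp, Itih4, Itih3 and A2m). Control 1 had the highest for 6 genes and NASH-CH 4 for 5, both including Orm1, Cp, Hp, Itih4 and Itih3. After subtracting each group's mean, Pearson's r over the 18 rats was 0.93 between Itih3 and Itih4, 0.89 between Orm1 and Hp and 0.78 between Orm1 and Lcn2. The 6 pairs among Orm1, Hp, Itih3 and Itih4 ranged from 0.63 to 0.93, with a median of 0.84, against a median of 0.28 over all 36 pairs. That group was picked after the correlations were seen and belongs to the 36 pairs, so its higher median is no independent result. Crp and Lbp, which both rose in NASH-CH rats, did not follow those genes from rat to rat, with r from -0.41 to 0.03 over the 8 pairs and a median of -0.11. Lcn2 and A2m, which rose there too, had r with those genes of 0.28 to 0.78 and of 0.38 to 0.52. These correlations describe 18 libraries that share depth and scaling, and were not tested.

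**Figure D3:**
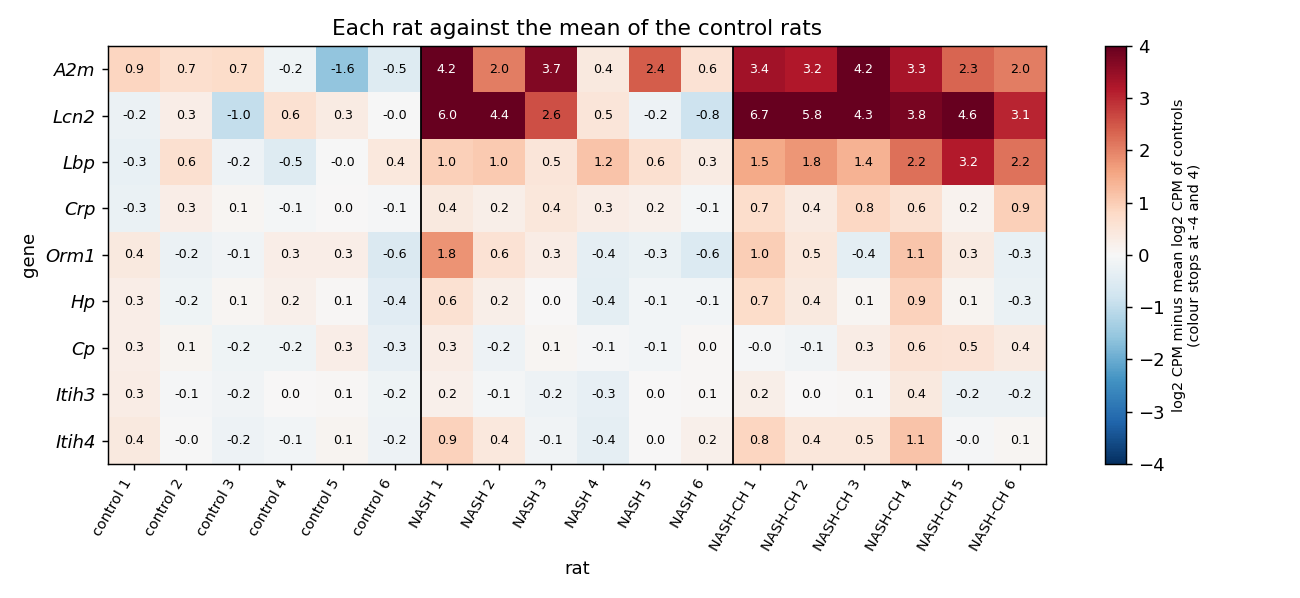
Log2 CPM of each acute phase gene in each rat minus the mean log2 CPM of control rats (rows are genes, columns are rats, colour stops at -4 and 4). A2m and Lcn2 are high in NASH 1, 2 and 3 and in each NASH-CH rat, and Orm1, Hp and Itih4 are high together in NASH 1, NASH-CH 1 and NASH-CH 4.

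**Figure D4:**
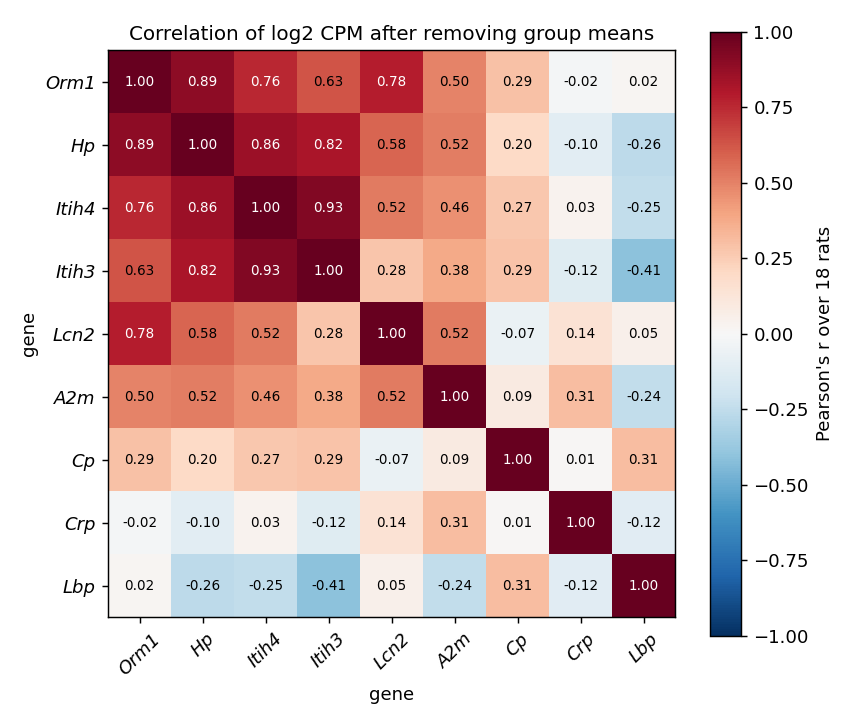
Pearson's r between the acute phase genes over the 18 rats, from log2 CPM after subtracting group means. Orm1, Hp, Itih3 and Itih4, grouped after the values were seen, range from 0.63 to 0.93 with each other. Crp and Lbp lie between -0.41 and 0.03 with them, Lcn2 between 0.28 and 0.78 and A2m between 0.38 and 0.52.

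The gene outside the 9 whose log2 CPM ranked the rats most like each of them was found among 11883 tested genes by Spearman's rho over the 18 rats, groups included. Itih2 was nearest to Itih4 (rho 0.911) and Itih1 to Itih3 (0.907), both of them heavy chains of the same family. Hrg, a plasma protein made by the liver, was nearest to Orm1 (0.754), and Pla2g16, a phospholipase, to Hp (0.866). The nearest genes of Lbp and Crp were Ubap2l (0.942) and Ralgapa2 (0.934). For Lcn2, Cp and A2m they were Dap (0.853), Atat1 (0.847) and Prkdc (0.825).

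Close relatives of the 9 genes were read as well, since RSEM can divide reads between similar copies. Of 19 relatives listed, 12 had a row and 10 were tested. Pzp and Mug1, macroglobulins of the A2m family, differed from control in NASH-CH rats by 0.30 (adjusted p = 0.215) and 0.29 (adjusted p = 0.408), in contrast to the 3.09 of A2m. Serpina3c, a serine protease inhibitor of the family of the absent Serpina3n, fell by 1.10 on the log2 scale in NASH-CH rats (SE 0.132, adjusted p = 1.59e-05), from 6188 ± 945 to 2906 ± 530 CPM. It was also lower in NASH-CH than in NASH rats, by a log2 difference of -0.71 (SE 0.132, adjusted p = 0.00291). Its family has near-identical copies, so the value is uncertain. Heph, the ferroxidase most like Cp, rose by 0.93 (SE 0.213, adjusted p = 0.00664), from 1.37 ± 0.301 to 2.65 ± 0.792 CPM.

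Beyond the 9 genes, 7 of 27 rows of other positive acute phase genes tested rose in NASH-CH rats, 1 fell and 19 did not pass the test. Cfb and C4a had more than 1 row. Over all genes 8.38% were called as increases and 8.60% as decreases. The count of increases was 8 with edgeR, 9 with DESeq2, 2 with the 2 groups fitted alone, 12 with sample quality weights and 17 without TMM scaling. Without TMM scaling 25.3% of all genes were called, 85% of them as increases. The median log2 fold change of these 27 was 0.37. C4b, a complement component, rose by 1.28 (SE 0.22, adjusted p = 0.000737) and Kng1, the kininogen precursor of bradykinin, by 1.51 (SE 0.411, adjusted p = 0.0178). Both have near-identical copies in the rat, so their values are uncertain. Hpx, the heme scavenger hemopexin, rose by 0.54 (adjusted p = 0.0341), a call lost without control 3, 4 or 5 or NASH-CH 1 or 4 (adjusted p of 0.0573 to 0.0868) and with the 2 groups fitted alone (0.0515). Lrg1, a leucine-rich glycoprotein, fell by 0.93 in NASH-CH rats (SE 0.164, adjusted p = 0.000919), against the direction its list is named for. In NASH rats 0 of the 27 rose and 1 fell, Lrg1 (-0.65, adjusted p = 0.0497). At an unadjusted p under 0.05, 5 were higher with limma-voom, 6 with edgeR and 7 with DESeq2, and 1 was lower with each. At an adjusted p under 0.05, 0 were higher with each of the 3 tests. With sample quality weights 4 were called higher, with the 2 groups fitted alone 1 and without TMM scaling 8. Of all genes 11.7%, 5.2% and 6.7% were called in these 3 fits, in either direction. The call of Lrg1 in NASH rats was lost without control 1, 3, 4 or 6, without any 1 of the NASH rats, or without NASH-CH 2, 3 or 4 (adjusted p of 0.0535 to 0.108). It was lost also with the replicate block (0.0651), without a filter on low counts (0.0782) and without TMM scaling (-0.42, adjusted p = 0.176).

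Of 13 negative acute phase genes tested, 4 fell in NASH-CH rats and 0 rose, with a median log2 fold change of -0.25 (0 were higher at an unadjusted p under 0.05, with edgeR and with DESeq2). Over all genes 8.60% were called as decreases and 8.38% as increases. Without TMM scaling 3 of the 13 were called lower and 2 higher, Ahsg and Itih2. Apoa1, the main protein of high-density lipoprotein, fell by 0.66 (adjusted p = 0.0107), Fetub, fetuin-B, by 0.76 (adjusted p = 0.0158), and Ttr, the thyroid hormone carrier transthyretin, by 0.76 (adjusted p = 0.0174). Alb, serum albumin, fell by 0.61 (adjusted p = 0.0304), a call lost without control 1, control 5 or NASH-CH 6 (0.0704, 0.0618 and 0.0622) and with the 2 groups fitted alone (0.0611). Apoa1 fell also in NASH rats, by 0.82 (adjusted p = 0.011), and each NASH rat was below every control rat. The share of all genes wholly below control rats was not counted. Both calls of Apoa1 were lost without TMM scaling (-0.59, adjusted p = 0.0548 in NASH, and -0.39, adjusted p = 0.115 in NASH-CH rats).

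Of the cytokine ligands, 7 of 11 were abundant enough to test, and 2 rose in NASH-CH rats, where 8.38% of all genes were called as increases and 8.60% as decreases. DESeq2 called 3 higher, adding Osm, oncostatin M, and 22.1% of all genes. With edgeR 1 was called. Ctf1, cardiotrophin-1, rose by 0.65 (SE 0.16, adjusted p = 0.0104), from 1.38 ± 0.101 to 2.25 ± 0.479 CPM. Clcf1, another ligand of the interleukin-6 family, rose by 1.37 (adjusted p = 0.0378), a call lost without control 1, 3, 4 or 5 or NASH-CH 3, 5 or 6 (adjusted p of 0.0543 to 0.112), with edgeR (0.0736), with the 2 groups fitted alone (0.091) and with the replicate block (0.0992). Of 8 receptors tested 1 rose, Osmr, the oncostatin M receptor, by 1.43 (adjusted p = 0.0351), a share near that of all genes. Its call was lost without control 1, 2, 3 or 5 or NASH-CH 3 or 6 (0.054 to 0.085), with the 2 groups fitted alone (0.0763), with sample quality weights (0.064) and with the replicate block (0.0576). Among 16 rows of transducers and transcription factors, 1 fell, again a share near that of all genes. This was Cebpb, a C/EBP factor of the acute phase promoters. It fell by 0.89 against control (SE 0.201, adjusted p = 0.00575), and its difference from NASH rats was -1.03 (SE 0.203, adjusted p = 0.00484). Its level was 59.0 ± 12 CPM in control animals, 64.9 ± 14.2 in NASH animals and 32.1 ± 8.35 in NASH-CH animals, and each NASH-CH rat was below every control rat. The share of all genes with such a separation downward was not counted. At an unadjusted p under 0.05, 3 of the 16 rows were higher and 2 lower in NASH-CH rats. Jak1, a kinase, was called higher there with DESeq2, sample quality weights, no filter or at least 10 counts in every rat. It was not called with limma-voom as fitted here or with edgeR. Without TMM scaling 4 rows were called higher, Jak1 among them. Of 6 feedback inhibitors tested 0 passed in NASH-CH rats, also at an unadjusted p under 0.05, with edgeR and with DESeq2. Socs3, a target and inhibitor of STAT3, differed by 0.65 (95% interval -0.28 to 1.57, adjusted p = 0.332). The 7 ligands had a median log2 fold change of -0.37 in NASH rats. At an unadjusted p under 0.05, edgeR and DESeq2 each had 2 ligands lower and 0 higher there. In NASH rats 0 ligands, receptors, transducers or feedback inhibitors passed with limma-voom as fitted here or with edgeR. With limma-voom 0, 1, 3 and 1 of them were higher at an unadjusted p under 0.05, and 0 were lower. DESeq2 called 1 of these, Il6st, the gp130 receptor subunit (0.60, adjusted p = 0.0188, against 0.061 with limma-voom), which passed also with the 2 groups fitted alone (0.0462), with sample quality weights (0.0206), without TMM scaling (0.0248), without control 6 (0.0393) and without NASH-CH 5 (0.0333). Pias3, an inhibitor of STAT proteins, passed in NASH rats with the replicate block (0.55, adjusted p = 0.0448) and with quality weights (0.0491). Nr3c1, the glucocorticoid receptor, passed there with quality weights (0.49, adjusted p = 0.0305), without TMM scaling (0.035) and without control 6 (0.0281). In NASH-CH against NASH rats, Ctf1 and Osmr passed with edgeR (adjusted p = 0.0364 and 0.0428) and not with limma-voom (0.0608 and 0.0915). DESeq2 called Ctf1 (0.0298), Osmr (0.0059) and Il6, interleukin-6, higher there, and 7.37% of all genes. With limma-voom 4 of the 7 ligands were higher there at an unadjusted p under 0.05 and 0 were lower. Osm and Il6 were named after their values were seen.

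**Figure D5:**
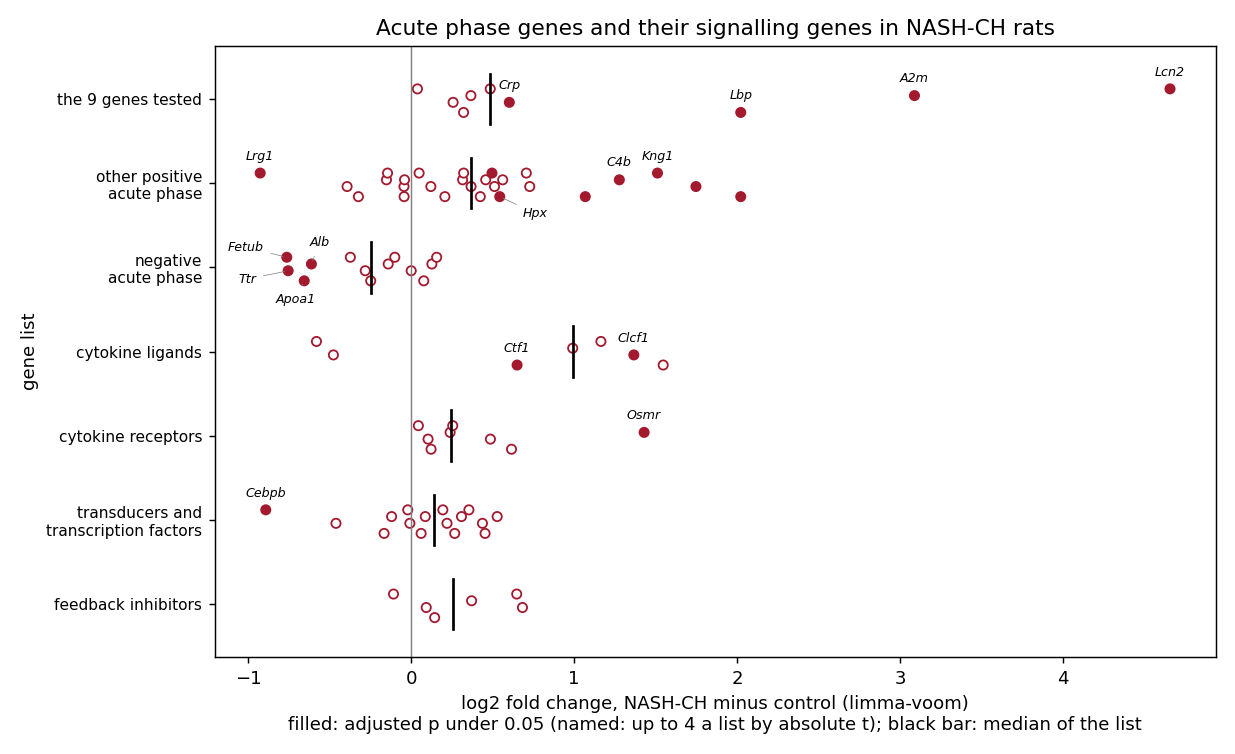
Log2 fold change in NASH-CH against control rats for the 9 acute phase genes and 6 related gene lists (limma-voom). Each tested row is 1 point, filled where the adjusted p was under 0.05. The vertical bar is at the median of the list, and up to 4 called genes are named in each list. The medians are 0.49 for the 9 genes, 0.37 for other positive and -0.25 for negative acute phase genes, and Cebpb stands at -0.89 among the transcription factors.

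Markers of other liver cells moved between the groups as well. The summed level of 9 macrophage markers was 268.8 to 489.5 CPM in control animals, 189 to 279 in NASH animals and 161 to 251 in NASH-CH animals, and 6 of the 8 tested fell in NASH-CH rats. That count was 7 with edgeR and with DESeq2, 5 with the replicate block, 4 with the 2 groups fitted alone, 3 with sample quality weights and 2 without TMM scaling. The call of Cd163 (-0.48, adjusted p = 0.0304) was lost also without control 3 or 5 or NASH-CH 2, 5 or 6 (0.0514 to 0.0729). Cd68 differed by 0.15 (adjusted p = 0.49). Cd163 and Cd68 were named after their values were seen. Stellate cell and myofibroblast markers summed to 275.5 to 369.7 CPM in control animals, 227 to 305 in NASH animals and 279 to 428 in NASH-CH animals, and 4 of 8 rose and 1 fell in the latter. The part of these cells in the differences of the acute phase genes was not tested.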

How the data were processed

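Each of the 18 rats (6 in each group) gave 1 TruSeq stranded library of liver RNA. The authors trimmed adapters, used STAR in 2-pass mode on the Rnor_6.0 genome and RSEM on the genes of Ensembl 95. They deposited expected counts, not normalized, in a table for each rat. Versions, and the strand setting, are not given in the sources used here. The labels name another RNA extraction kit than the methods.

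Expected counts were rounded (7.12% of values were not whole), filtered with filterByExpr and then scaled by TMM (both edgeR 4.0.16). They were tested with limma 3.58.1 (voom) in R 4.3.3, in 1 fit of 18 rats with a mean per group. Each comparison was adjusted by Benjamini-Hochberg over 12904 genes, with a threshold of 0.05. Error is the SE or 95% interval of the log2 fold change, or the SD over 6 rats. The fit was tested on simulated data. The rat is the replicate, and each p-value sets a group difference against the spread between these rats. Rats were treated as independent, although they were housed in pairs. Alternatives were DESeq2 1.42.0, the quasi-likelihood test of edgeR, other scalings, filters and weights, each comparison fitted alone, a replicate block, and leaving out each rat.

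The genes and lists were chosen with earlier results of these data known. By rule, each of the 10 listed genes was described. Of each other list at most 4 called genes were named by absolute moderated t, or at most 2 where none passed, with relatives named for comparison. For each gene the nearest other gene by Spearman's rho over 18 rats was named.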

Additional observations from a re-analysis of the deposited data

Results flagged for a closer look

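In the 27 groups of 6 rats formed by the 9 acute phase genes, 3 held a rat whose gap to the next rat exceeded Dixon's 95% critical value, as a share of the group's range. For independent values with a normal spread, about 1 in 20 groups would do so. Orm1 and Lcn2 correlated within groups (r = 0.78), and CPM were not put on a log scale here. The count of 3 can therefore not be set against that rate. Orm1 stood at 1046 CPM in NASH 1, where the next rat had 451 CPM (gap 0.708 of the range). Lcn2 stood at 93.8 CPM in the same rat, NASH 1, where the next had 30.6 CPM (0.679). Lbp stood at 312 CPM in NASH-CH 5, where the next had 162 CPM (0.68), and its rise against control remained past the test without that rat (log2 fold change 1.81, adjusted p = 3.6e-05 by limma-voom).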

How the results depend on the processing

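The calls of Lbp, A2m, Crp and Lcn2 in NASH-CH against control rats were kept under each of 9 alternatives and in each of the 18 fits that left out 1 rat, and the count of genes called there stayed at 4 in the fits that left out 1 rat. With sample quality weights that count was 5, Itih4 being added, and with library size only it was 8, with the median of all genes at 0.27. Over all genes, 18.7% were called there with quality weights. With library size only 25.3% were called, 85% of them as increases. Of the 9 genes, the count called in NASH rats was 1, and it was 2 with edgeR, with DESeq2, with sample quality weights and with the replicate block, 0 without a filter on low counts (20887 genes tested), and 0 to 2 when 1 rat was left out. In NASH-CH against NASH rats the count was 1, and it was 2 without the filter, with quality weights and with the replicate block, and 1 to 2 when 1 rat was left out. The cause was not tested. Whether replicate numbers pair the rats cannot be decided from these data. After subtracting group means, same-numbered rats correlated at -0.12 to 0.17 for NASH and control and at 0.03 to 0.12 for NASH-CH and control. The control rat of their own number was the best match for 2 of 6 NASH rats and 2 of 6 NASH-CH rats. With the block, the calls among all genes were 444 in NASH and 2095 in NASH-CH rats, against 403 and 2192 without it. Over all genes, the count in NASH rats was 652 with edgeR, 1228 with DESeq2, 865 with library size only, 268 without the filter, 644 with the 2 groups alone, 1509 with quality weights, and 128 (without control 3) to 982 (without control 6) when 1 rat was left out. In NASH-CH rats it was 5495 without the filter, 3270 with library size only and 1408 with the 2 groups alone. Leaving out 1 rat gave 1519 to 2409 there. In NASH-CH against NASH rats the count was 949 with DESeq2, 2649 without the filter and 349 with the 2 groups alone. Leaving out 1 rat gave 346 to 591 there. Signs changed for Cp in NASH rats with DESeq2 (-0.00131), Itih3 in NASH rats with library size only (0.174), Orm1 between the models with edgeR (-0.0246) and DESeq2 (-0.0276), and the neutrophil marker S100a9 in NASH rats with edgeR (-0.0464), DESeq2 (-0.106) and the replicate block (-0.0526). When 1 rat was left out, the NASH difference ranged from -0.0603 to 0.412 for Orm1, from -0.0739 to 0.137 for Hp, from -0.0556 to 0.0667 for Cp and from -0.11 to 0.00877 for Itih3. Likewise Itih3 in NASH-CH rats ranged from -0.0337 to 0.0996, and Orm1 between the models from -0.046 to 0.426. The lowest count of any of the 9 genes in a library was 15, for Lcn2 in control 3, which limits the precision of its fold changes.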

Other observations

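Il1b and Tnf, the cytokine genes of the NF-kB branch of the acute phase response, had wide ranges among control rats. Il1b ranged from 3.18 to 84.1 CPM in control, 8.22 to 18.9 in NASH and 10.3 to 37.3 in NASH-CH rats. Tnf ranged from 0 to 23.5 CPM in control, 0 to 7.52 in NASH and 1.5 to 10.7 in NASH-CH rats. Both genes were named after their values were seen.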
